A study of Mus musculus with 8 samples.

Results

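The BTG and TOB family of antiproliferative genes was followed across 3 cloned lines of mouse fetal fibroblasts. Its members were taken as the probe sets whose RefSeq transcript carries the symbol Btg1, Btg2, Btg3, Tob1 or Tob2. Of these 5 genes, 4 were found, each with 1 probe set, among 22523 probe sets of the whole series, and Btg3 was not matched to any probe set. Ind-8 cells (ASYM, asymmetric self-renewal) are p53-null fibroblasts in which zinc turns on a wild-type mouse p53 cDNA through a modified metallothionein promoter. Con-3 cells (SYM) are p53-null. The study's methods describe them as carrying the promoter vector without the p53 cDNA, and the sample labels as the line from which Ind-8 was derived. tI-3 cells (p53SYM) come from the p53-inducible line and also express an IMPDH II cDNA at all times, so that p53 is induced while self-renewal stays symmetric. All 3 lines were grown for 48 h with 65 µM ZnCl2 and with puromycin at 5 µg/ml, and tI-3 medium also held G418. Independent preparations were hybridized to 8 Affymetrix arrays, 3 of Ind-8, 3 of Con-3 and 2 of tI-3. Each state is 1 clone, so a difference between states cannot be told apart from a difference between clones.

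BTG and TOB proteins share a conserved amino-terminal domain through which they bind the CAF1 deadenylases (Cnot7 and Cnot8) of the CCR4-NOT complex. By bringing this complex to messenger RNAs they promote the shortening of poly(A) tails and the decay of the transcripts, and when overexpressed they slow the passage of cells from G1 into S phase. Btg2 is an early response gene and a known transcriptional target of p53, and Btg1 is its nearest relative. Tob1 and Tob2 have longer carboxy-terminal regions that bind the cytoplasmic poly(A)-binding protein.

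The promoters of Btg2 and Tob1, the members that differed between lines, are printed with those of their nearest relatives Btg1 and Tob2, which did not pass the test. The sequences are from RefSeq (GRCm38.p6) and run 5′ to 3′ on the strand of the gene, from 250 bases before the start site to 50 after it. Capitals mark matches on either strand to the cAMP response element (TGACGTCA), the CCAAT box (CCAAT or its complement ATTGG) and the TATA box (TATAAA).
Btg2, chr1:134079106-134079405, minus strand: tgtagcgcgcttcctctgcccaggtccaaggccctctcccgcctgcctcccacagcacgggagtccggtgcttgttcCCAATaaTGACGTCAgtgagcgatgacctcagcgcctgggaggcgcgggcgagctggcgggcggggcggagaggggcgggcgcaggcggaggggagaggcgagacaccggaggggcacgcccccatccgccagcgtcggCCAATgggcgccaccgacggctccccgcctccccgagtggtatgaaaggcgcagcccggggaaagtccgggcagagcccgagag
Btg1, chr10:96616751-96617050, plus strand: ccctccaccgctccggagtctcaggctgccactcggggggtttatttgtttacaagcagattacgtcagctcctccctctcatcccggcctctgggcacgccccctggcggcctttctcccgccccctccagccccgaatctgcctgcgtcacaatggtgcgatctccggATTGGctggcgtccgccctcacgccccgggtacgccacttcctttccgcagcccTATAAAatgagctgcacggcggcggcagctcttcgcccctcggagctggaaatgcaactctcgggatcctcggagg
Tob1, chr11:94211204-94211503, plus strand: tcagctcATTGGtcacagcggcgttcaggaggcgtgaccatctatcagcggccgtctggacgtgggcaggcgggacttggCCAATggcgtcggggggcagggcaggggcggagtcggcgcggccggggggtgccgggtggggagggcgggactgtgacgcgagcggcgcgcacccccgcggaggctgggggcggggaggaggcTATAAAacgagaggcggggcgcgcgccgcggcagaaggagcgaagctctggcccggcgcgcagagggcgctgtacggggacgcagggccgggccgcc
Tob2, chr15:81858277-81858576, minus strand: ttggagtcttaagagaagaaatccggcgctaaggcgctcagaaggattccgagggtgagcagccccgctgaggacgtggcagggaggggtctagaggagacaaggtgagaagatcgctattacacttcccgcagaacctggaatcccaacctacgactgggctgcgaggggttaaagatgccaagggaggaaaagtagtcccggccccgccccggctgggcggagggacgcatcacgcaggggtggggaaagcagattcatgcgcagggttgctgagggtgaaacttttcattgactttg

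The windows of Btg1, Btg2 and Tob2 lie at the outermost start of the gene, whereas that of Tob1 lies inside the annotated gene (chr11:94209842-94215495), at an internal start site. The Btg2 promoter holds a complete cAMP response element that begins 166 bases before the start site, next to a CCAAT box that begins 173 bases before it. A second CCAAT box lies 34 bases before the start site. The complete element is present in 1.79% of the 32851 RefSeq promoters of the same length, and among the 6 promoters listed for the 5 family genes it was found in that of Btg2 alone. The CCAAT box, present in 37.4% of all promoters, was found in the promoters of Btg1, Btg2 and Tob1 and in both promoters of Btg3, but not in that of Tob2. TATA boxes, present in 13.6%, begin 26 bases before the start site of Btg1 and 47 before that of Tob1. The shorter element TGACG, which the complete element contains on both strands and which occurs in 20.8% of promoters, was also found in Btg1 at 187 and 103 bases and in Tob1 at 96 bases before the start. The p53 consensus decamer was searched on both strands without mismatches. It was present in 8.36% of promoters and in 0 of the 6 family promoters, which says only that these letters are not in these windows.

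As a check of the labels, Trp53 had log2 values of 5.68, 5.87 and 5.80 in Ind-8, 5.21, 5.29 and 5.27 in Con-3, and 5.60 and 5.69 in tI-3 cultures, so the line without the cDNA was the lowest. Impdh2 measured 12.16, 12.19 and 12.22 in Ind-8, 12.51, 12.56 and 12.53 in Con-3, and 12.34 and 12.38 in tI-3 cultures, so that tI-3, the line with the IMPDH II cDNA, lay between the others and was not called against either by limma (log2 difference of Ind-8 against tI-3 −0.17, adjusted p = 0.163, and of tI-3 against Con-3 −0.17, adjusted p = 0.182). This probe set does not bear out the transgene of the line labelled tI-3. Whether the Impdh2 probes, or those of Trp53, lie in the respective cDNA is not given in the sources used here. The p53 target Cdkn1a lay at 9.59 to 9.70, 5.73 to 6.03 and 7.33 to 7.55 in the same order. Of 10 fibroblast markers 9 lay above the dimmest 25% of probe sets (mean log2 value under 4.30), while Thy1 did not. The summed fibroblast list ran from 15.65 to 15.76 in Ind-8, 15.35 to 15.46 in Con-3 and 15.29 to 15.45 in tI-3. This sum is carried by the most abundant markers, and single fibroblast markers differed more. By limma 5 rose and 1 fell in Ind-8 against tI-3, led by Col3a1 (2.42, adjusted p = 0.0013) and Pdgfra (1.51, adjusted p = 0.000463), and 3 rose and 3 fell in tI-3 against Con-3, with Col3a1 at −2.68 (adjusted p = 0.000621) and Col1a1 at −1.06 (adjusted p = 0.00474). In Ind-8 against Con-3, 2 rose and 1 fell. The summed epithelial, leukocyte and endothelial lists ran from 6.54 to 7.33 over all lines, with 8 of the 14 markers found in the dimmest 25%, among them Epcam, Cdh1, Ptprc, Pecam1 and Cdh5. The probe sets for 18S ribosomal RNA averaged 10.63 on Con-3 replicate 3 and 5.58 to 6.46 on the other arrays. The hybridization controls averaged 10.24 to 10.46 on Con-3 replicate 3 and both tI-3 arrays and 9.88 to 10.00 on the other 5. Their part in the results was not tested beyond the fits given beside them.

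Btg2 was the member that differed most between the lines. Its log2 values were 8.08, 9.27 and 8.80 in Ind-8, 6.17, 6.45 and 6.34 in Con-3, and 7.24 and 6.80 in tI-3 cultures. The 3 lines did not overlap. For Ind-8 against Con-3, 16.2% of all probe sets were without overlap in the higher direction and 21.8% in the lower; for Ind-8 against tI-3 these were 25.8% and 34.5%, and for tI-3 against Con-3 25.7% and 25.9%. The lowest Ind-8 array lay 0.84 above the highest tI-3 array, and the lowest tI-3 array 0.35 above the highest Con-3 array. The Ind-8 arrays were also the most spread, over 1.19 log2 units, with replicate 1 the lowest. In bulk RNA, more expressing cells and more RNA per cell cannot be told apart. The mean level was 8.71 ± 0.599 (SD, n = 3) in Ind-8, 6.32 ± 0.138 (SD, n = 3) in Con-3 and 7.02 ± 0.309 (SD, n = 2) in tI-3.

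Tob1 was also highest in Ind-8 cultures, with log2 values of 7.84, 8.49 and 7.97. It measured 7.34, 7.19 and 7.08 in Con-3 and 7.32 and 7.23 in tI-3 cultures. Every Ind-8 array lay above every array of the other lines, by at least 0.50, whereas Con-3 and tI-3 overlapped. Of all probe sets, 16.2% lay higher without overlap against Con-3 and 25.8% against tI-3, and the share above both lines was not computed. Ind-8 replicate 2 was the highest array for Tob1 as it was for Btg2.

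**Figure D1:**
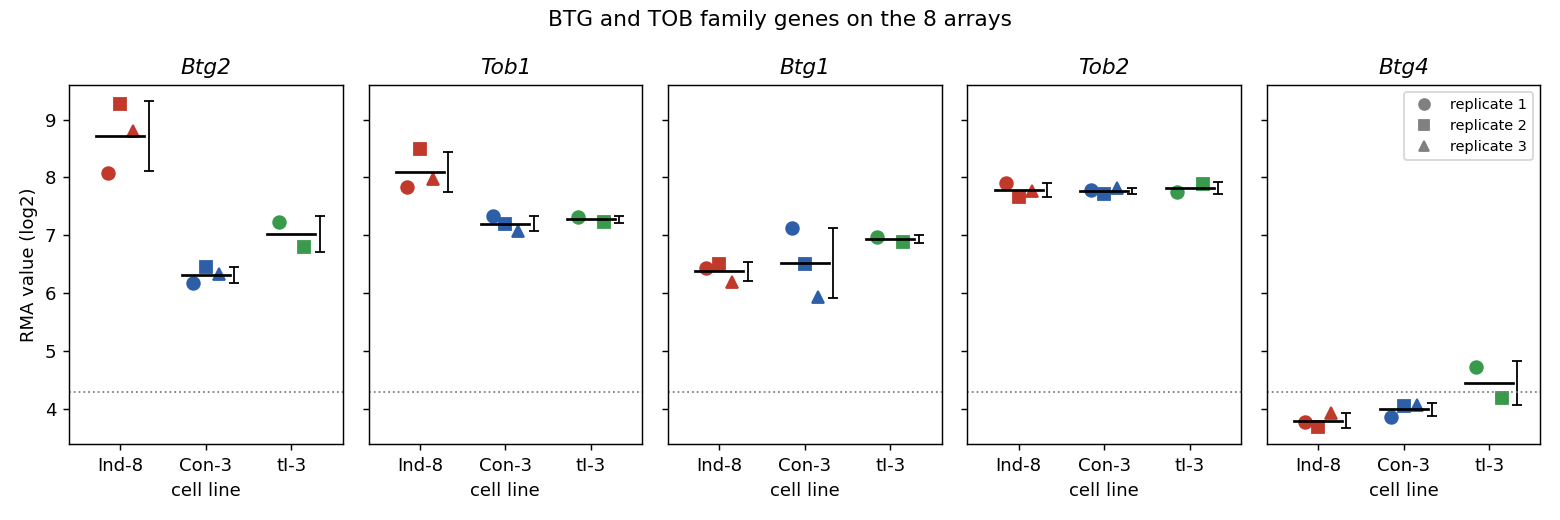
RMA values (log2, vertical axis) of the 4 measured BTG and TOB members and of Btg4 in the 3 lines (horizontal axis). Each symbol is 1 array, the horizontal bar is the line mean and the error bar beside it 1 SD (n = 3, 3 and 2); the dotted line at 4.30 bounds the dimmest 25% of probe sets, and heights of different genes are not comparable. Btg2 and Tob1 are highest on all Ind-8 arrays, Btg1 is widely spread in Con-3 from 5.93 to 7.13, and Tob2 stays between 7.66 and 7.90.

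Btg1 did not follow Btg2. Its log2 values were 6.44, 6.50 and 6.20 in Ind-8, 7.13, 6.50 and 5.93 in Con-3, and 6.98 and 6.89 in tI-3 cultures. The Con-3 arrays spanned the values of both other lines, with replicate 3, the array of high 18S signal, at the bottom. Both tI-3 arrays lay above all Ind-8 arrays, as they did for 34.5% of all probe sets.

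Tob2 was the most even member. It measured 7.90, 7.66 and 7.77 in Ind-8, 7.78, 7.71 and 7.82 in Con-3, and 7.75 and 7.89 in tI-3 cultures, a range of 0.25 log2 units over all 8 arrays. All lines overlapped.

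Btg4, a family gene known mainly from oocytes and not among the members, lay at the dim end of the arrays, at 3.69 to 3.94 in Ind-8, 3.87 to 4.07 in Con-3 and 4.19 to 4.72 in tI-3 cultures. It was lower in Ind-8 than in tI-3 by limma (log2 difference −0.65, SE 0.153, adjusted p = 0.0105).

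The first comparison, Ind-8 against Con-3, asks what accompanies zinc-induced p53 and the asymmetric state together. By limma, with p-values adjusted by Benjamini-Hochberg across the whole table, Btg2 and Tob1 rose and no member fell, that is 2 of 4, where 10.9% of all probe sets were called higher and 11% lower. The median log2 difference was 0.45 over the 4 members and −0.06 over all probe sets. Btg2 was 5.25-fold higher, a log2 difference of 2.39 (SE 0.247, 95% interval 1.85 to 2.94, adjusted p = 0.000151). It stood at rank 27 of 22523 from the largest rise. Tob1 was 1.86-fold higher, by 0.90 (SE 0.154, 95% interval 0.56 to 1.24, adjusted p = 0.00256), at rank 492. Neither Btg1 nor Tob2 passed the test. The log2 difference of Btg1 was −0.14 (95% interval −0.66 to 0.39, adjusted p = 0.729), which leaves room for a change in either direction, and it was 0.16 without Con-3 replicate 1 and −0.43 without Con-3 replicate 3. For Tob2 it was 0.01 with an interval of −0.20 to 0.21 (adjusted p = 0.974, limma).

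The rank product test that the study used ranks all probe sets by each pairwise difference between arrays and gives a percent false positive (pfp). At a pfp under 0.05 it called Btg2 in this comparison, with a pfp of 0 in 100 permutations, where 2.15% of probe sets were called higher and 1.43% lower. Tob1 had a pfp of 0.0529 and was not called. Btg2 was picked by the study as an asymmetric self-renewal associated gene on these same arrays, so its pattern here is not independent of that choice. Separately, by antibody staining, the study reported Btg2 protein in the nucleus of the cycling sister cell during asymmetric self-renewal. During symmetric self-renewal it reported the protein in both sisters. RNA of whole cultures does not show which sister holds the transcript.

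The second comparison, Ind-8 against tI-3, sets the lines against each other that both induce p53 but differ in self-renewal and in IMPDH II. Btg2 and Tob1 again rose by limma and no member fell (2 of 4), where 15.6% of all probe sets were called higher and 15.5% lower; the same Ind-8 arrays enter both comparisons. The median difference was 0.39 over the members and −0.06 over all probe sets. Btg2 was 3.24-fold higher in Ind-8, by 1.69 on the log2 scale (SE 0.276, 95% interval 1.08 to 2.31, adjusted p = 0.00188, limma), at rank 100. The rank product test also called it, with a pfp of 0.00704 where 1.59% of probe sets were called higher and 0.44% lower, but not without Ind-8 replicate 2 or without Ind-8 replicate 3. Tob1 was 1.77-fold higher, by 0.83 (SE 0.173, 95% interval 0.44 to 1.21, adjusted p = 0.00644, limma). Its pfp was 0.171, and without tI-3 replicate 2 it differed by 0.78 and was not called by limma (adjusted p = 0.0576). With the arrays blocked by their hybridization-control signal, Ind-8 and tI-3 share no block and are joined through Con-3 replicate 3 alone, the array of high 18S signal. In that fit Btg2 differed by 1.73 (adjusted p = 0.0949, limma) and Tob1 by 0.64 (adjusted p = 0.279), and neither was called.

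Btg1 was lower in Ind-8 than in tI-3 by −0.55 (SE 0.264, 95% interval −1.14 to 0.03), which did not pass the test (adjusted p = 0.132, limma). At the same difference it was called by limma in the fit of the 2 lines alone (adjusted p = 0.0118) and in those without Con-3 replicate 1 (0.0309) or replicate 3 (0.0374). In the fit blocked by hybridization-control signal, joined through Con-3 replicate 3 alone, where Btg1 was lowest, the difference was −1.44 (adjusted p = 0.0354). Tob2 differed by −0.04 with an interval of −0.27 to 0.19 (adjusted p = 0.786, limma).

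The third comparison, tI-3 against Con-3, asks which changes are present where p53 is induced without asymmetric self-renewal. Only tI-3 carries the IMPDH II cDNA and was grown with G418, so these cannot be told apart from p53 here. By limma 0 of 4 members were called, where 10.2% of all probe sets were called higher and 15.1% lower; 1 member, Btg2, had an unadjusted p under 0.05, and the rank product test also called 0, where it called 0.635% of probe sets higher and 1.67% lower. The median difference was 0.25 over the members and 0.04 over all probe sets. Btg2 was 1.62-fold higher in tI-3, by 0.70 (SE 0.276, 95% interval 0.09 to 1.31, adjusted p = 0.0904, limma), and by 0.48 to 0.92 with single arrays left out. Both tI-3 arrays lay above all Con-3 arrays for Btg2, as did those of 25.7% of all probe sets. It was called in the fit of these 2 lines alone (adjusted p = 0.0119, limma) and without Ind-8 replicate 1 (0.0167) or replicate 2 (0.0388). Tob1 differed by 0.07 (95% interval −0.31 to 0.46, adjusted p = 0.787, limma), and by 0.01 to 0.14 with single arrays left out. Tob2 differed by 0.05 (95% interval −0.19 to 0.28). Btg1 was 0.42 higher in tI-3 (95% interval −0.17 to 1.00, adjusted p = 0.282, limma). This value turned on the Con-3 arrays. It was 0.72 without Con-3 replicate 1 (adjusted p = 0.0197, limma) and 0.12 without Con-3 replicate 3 (adjusted p = 0.669). With the hybridization-control block, in which the tI-3 arrays are set against Con-3 replicate 3 alone, it was 1.01 (adjusted p = 0.0232), and with the replicate block 0.22 (adjusted p = 0.414).

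**Figure D2:**
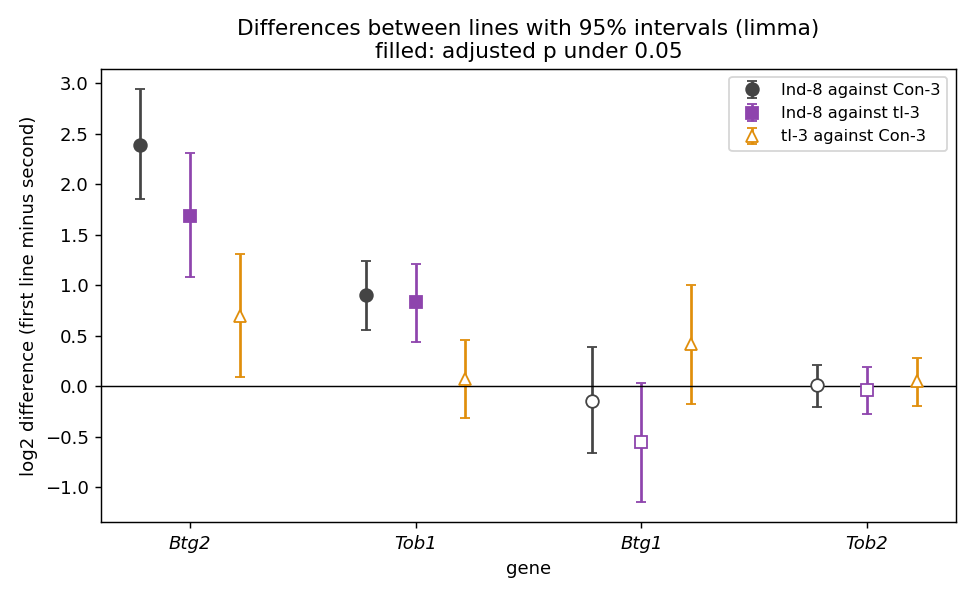
Log2 difference (first line minus second, vertical axis) of each measured member (horizontal axis) in the 3 comparisons, with 95% intervals from limma on all 8 arrays; filled symbols have an adjusted p under 0.05. Btg2 (2.39 and 1.69) and Tob1 (0.90 and 0.83) are filled in both comparisons of Ind-8, the interval of Btg2 for tI-3 against Con-3 starts at 0.09, and those of Btg1 and Tob2 include 0.

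In the order of the levels, then, Btg2 ran from Con-3 through tI-3 to Ind-8. The step from tI-3 to Ind-8 passed both tests and that from Con-3 to tI-3 passed neither. Tob1 ran in the same order, with Con-3 and tI-3 not distinguishable by limma. For Btg1 the order was Ind-8, Con-3 and tI-3, and for Tob2 Con-3, Ind-8 and tI-3, with no neighbours that differed by limma. Across the 3 lines together (limma F test over all probe sets), Btg2 (adjusted p = 0.000188) and Tob1 (0.00241) differed, while Btg1 (0.227) and Tob2 (0.915) did not pass the threshold.

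The deadenylase complex that BTG and TOB proteins bind was followed through its subunits. Its counts, and those of the other gene lists and markers, stand beside the shares of all probe sets called by limma. These were 10.9% higher and 11% lower in Ind-8 against Con-3, and 15.6% and 15.5% in Ind-8 against tI-3. In tI-3 against Con-3 they were 10.2% and 15.1%. Of the 11 CCR4-NOT genes listed 10 were found, with 11 distinct probe sets. None was called between Ind-8 and Con-3 by limma, and their median log2 difference there was −0.21. The CAF1 deadenylases Cnot7 and Cnot8, the direct partners of the family, were not called in any comparison. Cnot7 differed by −0.13, −0.10 and −0.03 in the order of comparisons above, and Cnot8 by 0.25, 0.02 and 0.23. The CCR4 deadenylases were highest in tI-3. Cnot6 was lower in Ind-8 than in tI-3 by −0.79 (SE 0.152, adjusted p = 0.00425, limma) and higher in tI-3 than in Con-3 by 0.53 (adjusted p = 0.0263). Both probe sets of Cnot6l moved likewise, by −0.64 and −0.52 in Ind-8 against tI-3 and by 0.42 and 0.39 in tI-3 against Con-3, all 4 past the threshold. In all, 1 probe set of the complex was higher and 3 were lower in Ind-8 than in tI-3 (medians −0.10 for the list and −0.06 for all probe sets), and 3 were higher and 2 lower in tI-3 than in Con-3 (0.03 and 0.04). Those that moved against the CCR4 deadenylases were the non-catalytic subunits Cnot11, by 0.32 in Ind-8 against tI-3 (adjusted p = 0.023, limma) and −0.36 in tI-3 against Con-3 (adjusted p = 0.0139), and Cnot2, by −0.46 in tI-3 against Con-3 (adjusted p = 0.00449). Cnot11 was named after its values were seen.

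Of 7 further genes of poly(A) tail metabolism 6 were found. In Ind-8 against Con-3 the terminal uridylyltransferase Tut7 rose by 0.47 (adjusted p = 0.0134, limma), Pan2, the catalytic subunit of the PAN2-PAN3 deadenylase, changed by −0.38 (adjusted p = 0.0312), and the other 4 were not called. None was called in Ind-8 against tI-3. In tI-3 against Con-3, Pan2 (−0.52, adjusted p = 0.0103) and Pabpc1, the poly(A)-binding protein that TOB proteins contact (−0.30, adjusted p = 0.04), were lower by limma, with 4 not called. The list medians were 0.08, 0.21 and −0.20 in the order of comparisons above.

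Of 7 known partners and targets of the family 6 were found, with 1 probe set each. In Ind-8 against Con-3, 1 rose and 0 fell by limma (median −0.13), the riser being Ccnd1, cyclin D1, a gene that Tob1 and Btg2 are known to repress, by 0.31 (adjusted p = 0.0272). Against tI-3, 1 rose and 1 fell (median −0.08). Smad1, a BMP effector, was higher by 0.65 (adjusted p = 0.0441, limma). Hoxb9, a partner of Btg2 that lay at the dim end in all lines, 3.92 to 4.54, differed by −0.51 (adjusted p = 0.00373). In tI-3 against Con-3, 1 rose and 0 fell (median 0.02), again the dim Hoxb9, by 0.36 (adjusted p = 0.0199, limma). The arginine methyltransferase Prmt1, which binds Btg1 and Btg2, was not called in any comparison and differed by −0.11, 0.05 and −0.16.

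**Figure D3:**
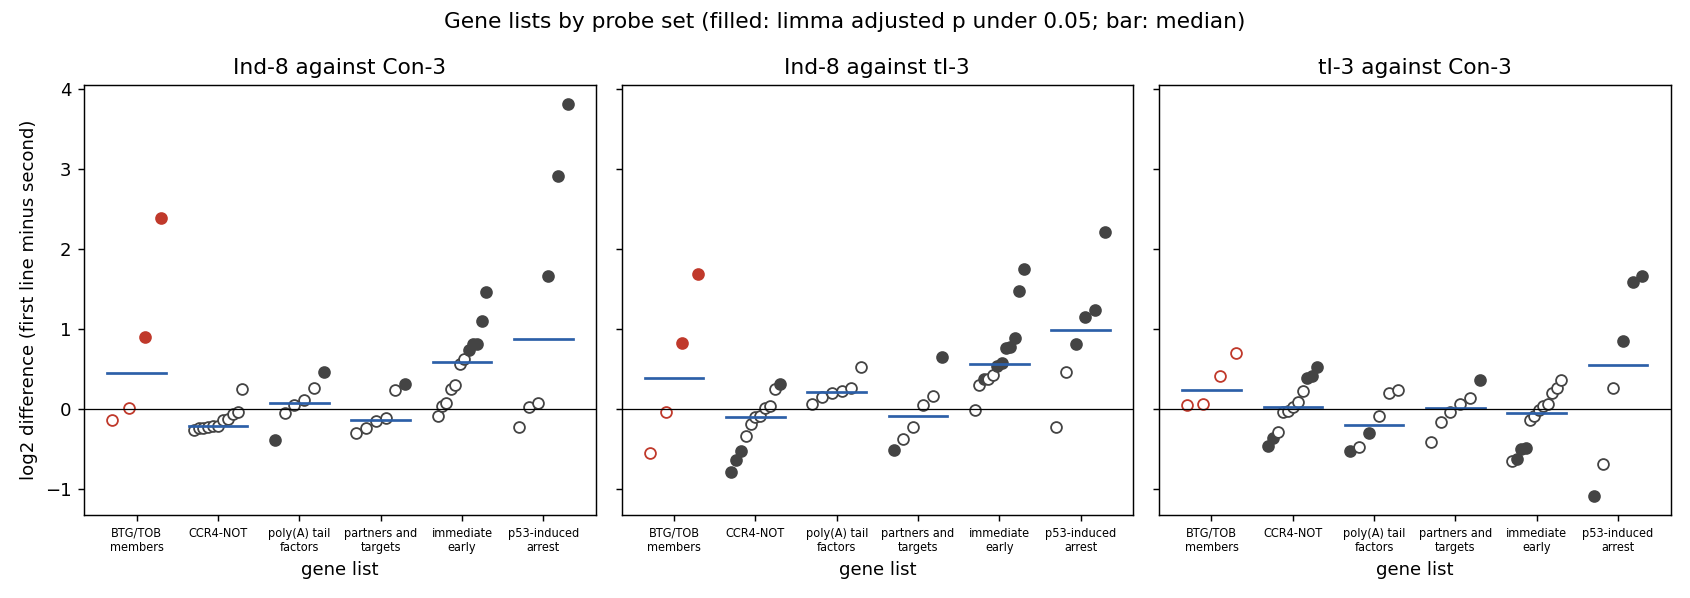
Log2 difference (first line minus second, vertical axis) of the distinct probe sets of each gene list (horizontal axis), in the 3 comparisons; filled symbols have a limma adjusted p under 0.05 and bars are list medians. CCR4-NOT probe sets show 0 calls between Ind-8 and Con-3, and the immediate early list has 5 probe sets higher and 0 lower there and 8 higher and 0 lower in Ind-8 against tI-3.

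Because Btg2 is both an early response gene and a p53 target, genes of these classes were set beside it. Of 12 immediate early genes, 5 rose and 0 fell in Ind-8 against Con-3 by limma (median 0.59), led by Egr2 (1.47, adjusted p = 0.00898) and Fos (1.10, adjusted p = 0.0356), transcription factors of the serum response. In Ind-8 against tI-3, 8 rose and 0 fell (median 0.56), with Fos at 1.75 (adjusted p = 0.0065) and Egr2 at 1.48 (adjusted p = 0.0121). In tI-3 against Con-3, 0 rose and 3 fell (median −0.04), among them Jun (−0.62, adjusted p = 0.00734) and Atf3 (−0.50, adjusted p = 0.00757). Fos measured 8.28, 9.47 and 9.28 in Ind-8, so that replicate 1 was the lowest and replicate 2 the highest, as for Btg2 and Tob1. In tI-3 it measured 7.82 and 6.70, with replicate 1 above replicate 2, and in Con-3 7.71, 7.81 and 8.19. Most of the other immediate early genes did not share the Ind-8 order, among them Egr2 at 6.91, 7.38 and 5.89, lowest on replicate 3.

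Of 6 p53-induced growth arrest genes, 3 rose and 0 fell in Ind-8 against Con-3 by limma (median 0.87), with Cdkn1a, the p21 inhibitor, at 3.81 (adjusted p = 1.91e-08) and Ccng1 at 2.91 (adjusted p = 1.11e-06). Against tI-3, 4 rose and 0 fell (median 0.99), with 2.22 for Cdkn1a (adjusted p = 3.58e-06) and 1.24 for Ccng1 (adjusted p = 0.000469). In tI-3 against Con-3, 3 rose and 1 fell (median 0.56). There Cdkn1a differed by 1.59 (adjusted p = 1.93e-05) and Ccng1 by 1.67 (adjusted p = 8.02e-05), beside the 0.70 of Btg2. The gene that fell was Plk3, a stress-responsive kinase, by −1.08 (adjusted p = 0.000972, limma), and it was named after its values were seen. On single arrays Ccng1 measured 11.79, 12.42 and 12.07 in Ind-8 and 10.93 and 10.77 in tI-3, the order of replicates seen for Btg2 in these lines. In Con-3 the order differed, with Ccng1 at 9.14, 9.20 and 9.22 and Btg2 at 6.17, 6.45 and 6.34. The share of all probe sets with the order of Btg2 was not computed. Cdkn1a, at 9.70, 9.70 and 9.59 in Ind-8, and most other genes of this list did not share the Ind-8 order.

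The genes most like Btg2 over the 8 arrays, among 613 named probe sets above the dimmest 25% with an SD of at least 0.5 times that of Btg2, were Ctsf (Pearson's r = 0.986), Selenom (0.982) and Nr4a1 (0.980). Ctsf measured 7.06, 7.40 and 7.08 in Ind-8, 5.72, 5.91 and 5.83 in Con-3, and 6.31 and 6.08 in tI-3. Selenom measured 10.79, 11.18 and 10.99 in Ind-8, 9.51, 9.92 and 9.78 in Con-3, and 10.33 and 10.14 in tI-3. Nr4a1, the third by r, encodes an orphan nuclear receptor that is itself an immediate early gene. Its log2 values were 9.27, 9.84 and 9.42 in Ind-8, 8.0, 7.88 and 7.75 in Con-3, and 8.44 and 8.39 in tI-3. The genes most like Tob1, among 5946, were Rcan2 (0.984), Anxa4 (0.982) and Cirbp (0.980). Rcan2, a regulator of calcineurin, measured 6.96, 7.74 and 7.31 in Ind-8, 6.41, 6.03 and 5.68 in Con-3, and 6.16 and 6.03 in tI-3. These correlations describe 8 arrays that fall into 3 lines, and their highest values were selected from many probe sets.

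**Figure D4:**
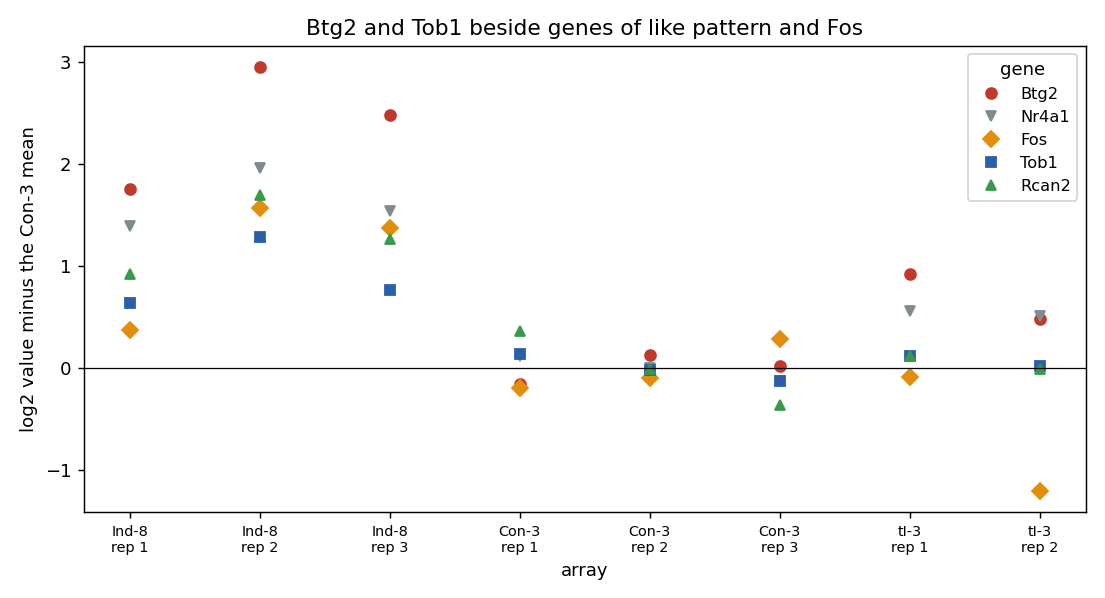
Log2 value minus the Con-3 mean (vertical axis) of Btg2 and Tob1, of Nr4a1 and Rcan2 from the lists of most similar genes, and of Fos, on each of the 8 arrays (horizontal axis); each symbol is 1 array. All 5 genes are highest on Ind-8 replicate 2 (9.27 for Btg2 and 8.49 for Tob1 before subtraction). Nr4a1 and Rcan2 were picked by their correlation over these same arrays, so sharing that array is not independent of the choice. The share of all probe sets highest on that array was not computed. On both tI-3 arrays Btg2 is above the Con-3 mean, whereas Fos (7.82 and 6.70 before subtraction) is below its own.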

How the data were processed

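Whole-genome expression was measured on Affymetrix mouse whole-genome arrays of 3 Ind-8, 3 Con-3 and 2 tI-3 cultures, with lines and replicates taken from the sample titles. The authors processed the arrays by RMA, with probes regrouped into RefSeq transcripts by a custom chip description file, and deposited them on a log2 scale. No further normalization was applied. Of 22587 probe sets, 64 controls were set aside and 22523 tested; 18294 were named through RefSeq transcripts of GRCm38.p6, which was used for names and promoters. An array has no sequencing depth, and the number of arrays limits the precision. Because cultures of 1 line share a clone, p-values measure the spread between cultures.

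Differences, SEs and two-sided p-values came from limma 3.58.1 (R 4.3.3) on all 8 arrays with the 3 line means, adjusted by Benjamini-Hochberg over all tested probe sets, with a threshold of 0.05. The rank product test of the study was re-implemented (Python 3.11.15, numpy 2.4.6, 100 permutations within arrays, pfp under 0.05). Both were tested on simulated data. Probe sets with identical values were counted as 1 in the lists. Named from each list were at most the 2 called genes of largest change per comparison, beside the CCR4 and CAF1 deadenylases. Prmt1, Cnot11 and Plk3 were named outside this rule. A gene of the partner list is not reported here and was left out of its counts. The genes most like a member were the 3 of highest Pearson's r, for members whose lines differed by the limma F test. Members and lists were chosen with earlier results of these data known. Alternatives covered the arrays in the fit, a replicate block, a hybridization-control block (18 control probe sets, split at the widest gap), a trend in the prior, normalization, filters, duplicate and control probe sets, the pfp threshold and each array left out.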

Additional observations from a re-analysis of the deposited data

How the results depend on the processing

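The rise of Btg2 in Ind-8 over Con-3 was called by limma in every alternative fit, several of which coincide for this comparison, and by the rank product test, with log2 differences of 2.12 to 2.71 when single arrays were left out; Tob1 was called there in the same fits (0.70 to 1.03 with single arrays left out) but not by the rank product test, which called 1 member rather than 2 in both comparisons of Ind-8. Leaving out single arrays, limma called 2 members throughout in Ind-8 against Con-3, 1 to 3 in Ind-8 against tI-3 and 0 to 1 in tI-3 against Con-3; the rank product test called 1, 0 to 1, and 0. The lowest count against tI-3 was that without tI-3 replicate 2 for limma, and for the rank product test those without Ind-8 replicates 2 and 3. The difference of Btg2 ran from 1.42 to 2.01 against tI-3 and from 0.48 to 0.92 in tI-3 against Con-3. The hybridization-control block joins tI-3 to the other lines through Con-3 replicate 3 alone. It left 1 call, Btg1, in Ind-8 against tI-3, with Btg2 at 1.73 and no longer called, and gave 1 call, Btg1, in tI-3 against Con-3. The fit of the 2 compared lines alone gave 1 call in tI-3 against Con-3, Btg2 at 0.70. Signs turned for differences that were not called. Btg1 in Ind-8 against Con-3 ran from −0.43 to 0.16 with single arrays left out, and in tI-3 against Con-3, without a change of sign, from 0.12 to 0.72. Tob2 was −0.04 with arrays quantile-normalized again, −0.01 with arrays centred on their median and −0.06 to 0.07 with single arrays left out. Against tI-3, Tob2 was 0.03 with the hybridization-control block and −0.11 to 0.03 with single arrays left out, and in tI-3 against Con-3 −0.02 to 0.11. The causes of these shifts were not tested. Whether replicate numbers pair the arrays was not settled. Deviations from the line means correlated at −0.225 to 0.381 over 7 pairs of same-numbered arrays. Between Ind-8 and Con-3 the same-numbered arrays correlated at 0.27, 0.029 and 0.381, and the differently numbered ones at −0.408 to 0.117. Pairs with tI-3 say little, because the deviations of its 2 arrays mirror each other. With the replicate block limma called the same 2, 2 and 0 members, with Btg2 at 2.39, 1.67 and 0.73. Where a tI-3 array is left out, the single remaining array is taken to vary like the other lines.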
